A study of Homo sapiens with 6 samples.

Results

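The EGFR family receptors and their ligands were examined in RNA-seq counts from HCT116 cells, an established human line from a colorectal cancer, after knockdown of GDPD5, a glycerophosphodiester phosphodiesterase. The 10 genes are the ERBB receptors (EGFR, ERBB2, ERBB3 and ERBB4) and 6 of the ligands that bind them (AREG, EREG, TGFA, HBEGF, BTC and EPGN), taken by gene symbol from a table of 79302 genes. Of these members, 8 were among the 16755 genes with enough counts to be tested, and ERBB4 and EPGN were not. They were compared between 3 libraries with an shRNA against GDPD5 (shGDPD5) and 3 libraries with a control shRNA (shCtrl).

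The study describes the cells of both groups as a radioresistant line, obtained by 25 rounds of 4 Gy, and collected 6 h after a further 4 Gy, whereas the labels of the samples name only HCT116 and the shRNA. A non-irradiated or parental sample was not analysed here, so every difference below lies between irradiated radioresistant cells with and without the GDPD5 shRNA. The study lists 2 GDPD5 shRNAs without naming the one sequenced, and it does not state if replicate libraries were grown as separate cultures. The p-values therefore measure the spread between these libraries, which may be technical. EGFR stands beside GDPD5 and CD55, a complement regulator of the cell surface, in the title of the study as 1 binding axis of proteins, while the present data measure RNA only.

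The ERBB receptors are receptor tyrosine kinases that work as pairs. EGFR binds AREG, TGFA and several related ligands, while BTC, HBEGF and EREG also bind ERBB4. ERBB2 has no known ligand and serves as the preferred partner of the others, and ERBB3 has little kinase activity of its own and recruits PI3-kinase when it is paired. The ligands are made as membrane-anchored precursors, and metalloproteases, above all ADAM17 and ADAM10, cut them free. In the intestinal epithelium this system drives growth and repair, and AREG and EREG are abundant in many colorectal cancers.

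AREG, EREG and BTC, which had the 3 lowest log2 fold changes among the members tested, lie in a ligand gene cluster on chromosome 4. Their promoters are printed so that the sequence at the start of each gene can be compared. The sequences come from RefSeq on GRCh38.p14, read 5′ to 3′ on the strand of the gene, from 250 bases before to 50 bases after the annotated start. AREG lies at chr4:74444886-74445185 on the plus strand, EREG at chr4:74364895-74365194 on the plus strand and BTC at chr4:74794474-74794773 on the minus strand. Capitals mark matches on either strand to 5 short motifs, namely an AP-1 site (TGANTCA), a cyclic AMP response element (CRE, TGACGTCA), a TATA box (TATAAA), a GC box (GGGCGG) and an ETS core (CCGGAA).
AREG: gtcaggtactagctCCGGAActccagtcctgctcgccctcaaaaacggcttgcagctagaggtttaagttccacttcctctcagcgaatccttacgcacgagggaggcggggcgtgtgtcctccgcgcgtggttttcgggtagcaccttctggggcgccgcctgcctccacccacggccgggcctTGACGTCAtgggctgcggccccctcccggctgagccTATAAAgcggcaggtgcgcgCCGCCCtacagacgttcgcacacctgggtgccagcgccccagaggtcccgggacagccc
EREG: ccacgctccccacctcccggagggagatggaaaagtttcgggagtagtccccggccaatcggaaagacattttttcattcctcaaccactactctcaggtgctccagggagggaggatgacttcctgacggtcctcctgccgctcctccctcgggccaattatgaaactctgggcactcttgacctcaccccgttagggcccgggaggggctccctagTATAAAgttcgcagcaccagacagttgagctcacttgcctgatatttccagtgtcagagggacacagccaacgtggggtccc
BTC: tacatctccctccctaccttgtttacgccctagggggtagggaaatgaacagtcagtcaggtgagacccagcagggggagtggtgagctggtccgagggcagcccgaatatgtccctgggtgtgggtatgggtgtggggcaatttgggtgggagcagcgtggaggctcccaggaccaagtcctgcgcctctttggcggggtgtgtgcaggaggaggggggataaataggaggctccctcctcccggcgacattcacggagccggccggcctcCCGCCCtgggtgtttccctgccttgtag

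The AREG window held a CRE that began at -65 from the start, a TATA box at -29, a GC box at -9 on the opposite strand and an ETS core at -236. No marked motif in the 3 printed windows overlapped another. The CRE letters were present in 1.85% of the 35116 promoters of the same table, and AREG was the only one of the members searched with a match to them. The EREG window held 1 match, a TATA box at -32, and the BTC window held 1 match, a GC box at +23. TATAAA was present in 11.5% of all promoters and GGGCGG in 45.0%. EPGN also held a TATA box close to the start, at -29, although EPGN was barely expressed and AREG and EREG were abundant.

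Promoters were found for 9 of the 10 members, 11 windows in all, and ERBB3 had no entry. At the main EGFR start the matches were GC boxes at -204, -36 and +44, and at a second annotated EGFR start there were AP-1 letters at -232 and -136 and TATA boxes at -146 and -36. The only ERBB2 window lay at the upstream edge of the gene (chr17:39687844-39688143, plus strand), and any start further inside the gene was not searched. This window held AP-1 letters at -222 and ETS cores at -25 and -14. AP-1 letters were present in 7.71% of all promoters and ETS cores in 17.2%. HBEGF had 5 GC boxes. A match is a description of the letters, and binding was not measured.

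The knockdown and the identity of the cells were checked first. GDPD5 averaged 5.39 ± 0.185 normalized CPM (counts relative to the scaled total of the library) in shGDPD5 libraries and 9.90 ± 1.65 CPM in shCtrl libraries (SD, n = 3 each), a log2 fold change of -0.88 (SE 0.13, adjusted p = 0.000116, quasi-likelihood test of edgeR with Benjamini-Hochberg adjustment over all tested genes). The knockdown was partial in RNA, with GDPD5 at 54.5% of its shCtrl mean, and 8.41% of all tested genes had a lower log2 fold change than GDPD5. CD55 was lower as well, with a log2 fold change of -1.34. Libraries held 16715447 to 18510670 counts with shGDPD5 and 17602320 to 18076702 with shCtrl. The replicate pairs differed by more than sampling noise, and both of the highest chi-square values per degree of freedom (6.12 and 7.10) involved shCtrl replicate 1. The epithelial markers EPCAM, CDH1, KRT8, KRT18, KRT19 and CDX2 were expressed in every library. All 6 were lower in shGDPD5 libraries at an adjusted p under 0.05 by edgeR, as were 30.1% of all tested genes. Their log2 fold changes lay between -0.83 for CDH1 and -0.16 for KRT8. Of all tested genes, 9.17% had a lower log2 fold change than CDH1 and 37.7% a lower one than KRT8. The KRT8 values of the groups overlapped. Of 10 markers of fibroblasts, leukocytes and endothelium, COL1A2, DCN, CD3E and CDH5 were at 0 in every library, and only CD68 and COL1A1 reached the count filter. CD68, a macrophage marker, moved with the members, at 2.66 ± 0.235 CPM in shGDPD5 libraries and 8.21 ± 2.34 CPM in shCtrl libraries (log2 fold change -1.63, adjusted p = 1.8e-05 by edgeR), while the leukocyte marker PTPRC held 0 to 2 counts a library. COL1A1 was not called (log2 fold change 0.11). The part of the epithelial marker and CD68 differences in the results below was not tested.

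Knockdown of GDPD5 came with less RNA of the EGFR ligands and, to a smaller degree, of EGFR and ERBB3. Among the 8 members tested, 7 were lower in shGDPD5 libraries at an adjusted p under 0.05 and 0 were higher, and ERBB2 did not pass. Over all tested genes, 30.1% were lower and 29.7% were higher by the same rule. All 5 tested ligands were lower, as were 2 of the 3 tested receptors. The median log2 fold change of the 8 members was -0.91, against 0.01 for all tested genes. The members were chosen with earlier results of these data known, so these counts and this median are a description only. In bulk RNA of this kind, fewer cells of one type and less RNA per cell cannot be told apart.

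All 8 tested members had shGDPD5 and shCtrl values that did not overlap, which 64.9% of all tested genes also showed. Thresholds like those the study states combine an unadjusted p under 0.05 and a log2 fold change of 1 or more in size. They were applied here to the edgeR test, whereas the study names a t test. By this rule AREG, EREG, HBEGF and BTC, 4 of 8, were lower in shGDPD5 libraries, where 6.60% of all tested genes were lower. EGFR, TGFA and ERBB3 passed the adjusted p and had log2 fold changes nearer to 0 than that threshold.

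**Figure D1:**
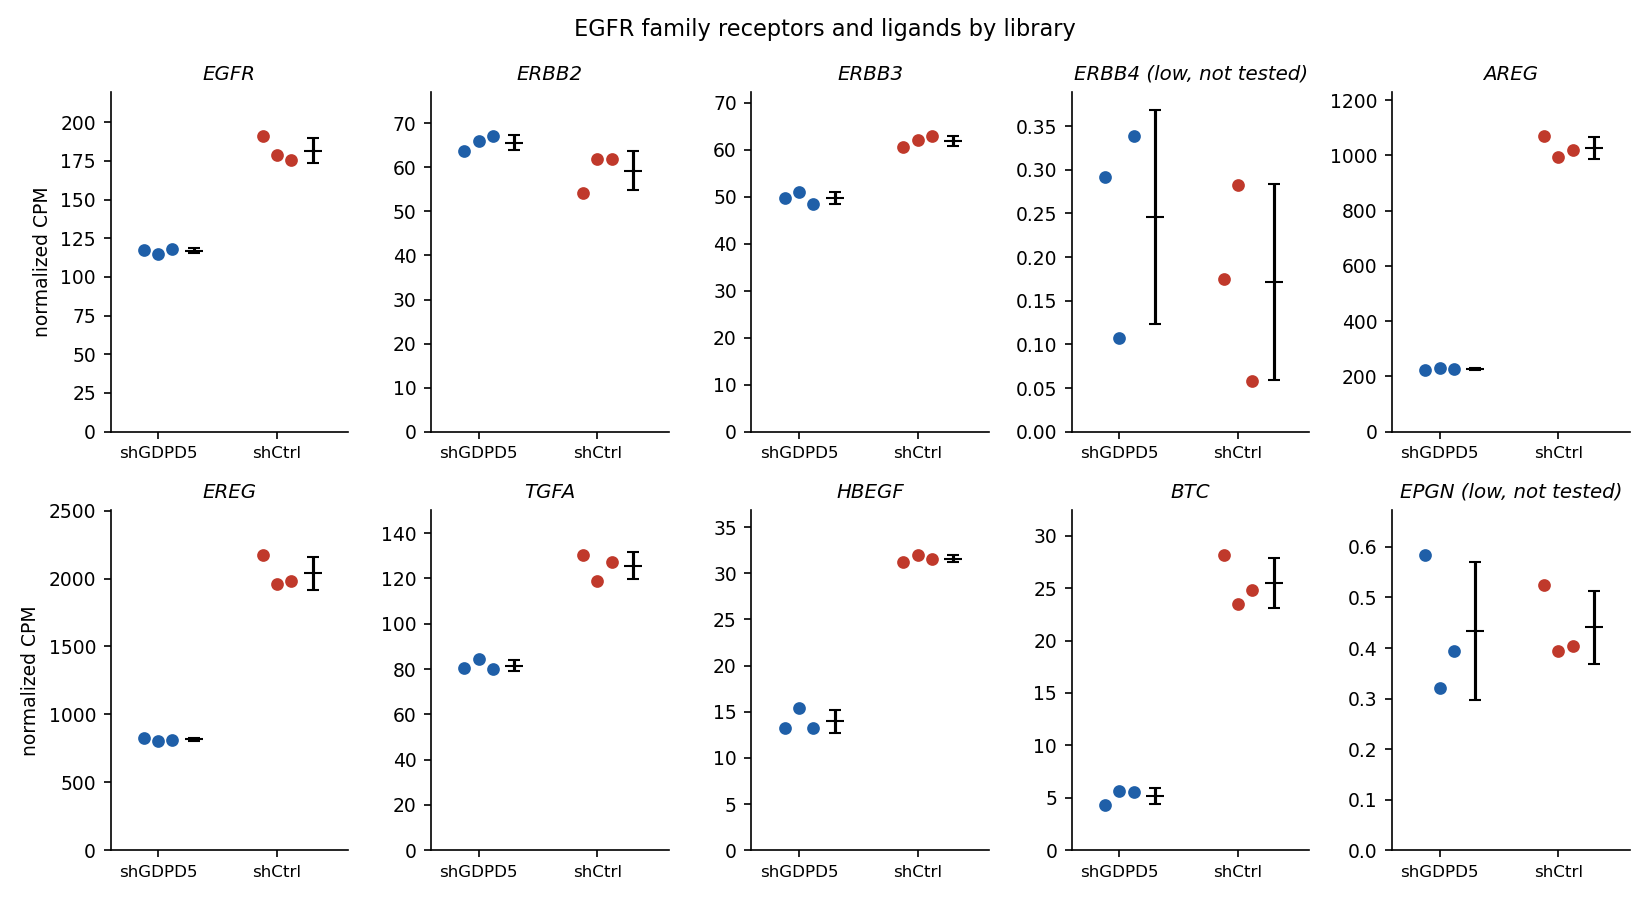
Normalized CPM (y axis, from 0, a separate scale in each panel) of the 10 members in each library, with shGDPD5 libraries in blue on the left and shCtrl libraries in red on the right. Bars give the mean ± SD of 3 libraries. The groups are apart in the panels of all 8 tested members, and ERBB2 is the only one of these with higher values in shGDPD5 libraries. ERBB4 and EPGN lie below 0.6 CPM in every library and were not tested.

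Among the receptors, EGFR changed most. EGFR, the founding member of the family and the target of cetuximab in colorectal cancer, had 2014, 2154 and 2092 counts in shGDPD5 libraries and 3279, 3171 and 3040 counts in shCtrl libraries. After normalization these were 118, 115 and 118 CPM with shGDPD5 and 191, 179 and 175 CPM with shCtrl. All shGDPD5 values lay below all shCtrl values, and shCtrl replicate 1 was the highest. The shGDPD5 mean was 64.3% of the shCtrl mean, a log2 fold change of -0.64 (95% interval -0.74 to -0.53, adjusted p = 2.4e-07 by edgeR). Of all tested genes, 14.1% had a lower log2 fold change than EGFR, so its size was not unusual in this comparison. EGFR spans 55019021 to 55211628 on the plus strand of chromosome 7 (GENCODE release 29 on GRCh38). The antisense gene EGFR-AS1 shares 186 exon bases with it and held between 0 and 3 counts a library.

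ERBB3, the partner with little kinase activity, had 49.7, 51.0 and 48.6 CPM in shGDPD5 libraries and 60.6, 62.1 and 62.9 CPM in shCtrl libraries. The groups were clearly apart, with a spread of 1.21 CPM (SD) within shGDPD5 and 1.14 CPM within shCtrl. ERBB3 stood at 80.4% of its shCtrl mean, a log2 fold change of -0.31 (95% interval -0.43 to -0.20, adjusted p = 0.000208 by edgeR), and 28.0% of the tested genes had lower values than this. The locus on chromosome 12 (56076799 to 56103505, plus strand) shares 31 exon bases with AC034102.2 on the same strand. That gene was counted unevenly, with 15, 94 and 60 counts in shGDPD5 libraries and 83, 2 and 0 in shCtrl libraries, against 850 to 955 and 1041 to 1100 for ERBB3 itself.

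ERBB2, the ligand-less partner that is amplified in a subset of colorectal cancers, went the other way. Its values were 63.8, 66.1 and 67.1 CPM in shGDPD5 libraries and 54.1, 61.9 and 61.9 CPM in shCtrl libraries. The groups did not overlap, but shCtrl replicate 1 lay well below the other shCtrl libraries and the lowest shGDPD5 library was only slightly above them. The log2 fold change was 0.15 (95% interval 0.01 to 0.28), with an unadjusted p of 0.035 and an adjusted p of 0.0574 by edgeR, so ERBB2 was not called. Without shCtrl replicate 1 the log2 fold change was 0.08 (adjusted p = 0.107). ERBB2 (chromosome 17, 39687914 to 39730426, plus strand) shares 571 exon bases with MIEN1 and 194 with PGAP3, both on the opposite strand. MIEN1 held 635, 690 and 665 counts with shGDPD5 and 572, 644 and 687 with shCtrl, and since the use of strand in counting is not given, reads from the shared bases cannot be assigned.

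ERBB4, the receptor for BTC and HBEGF as well as for neuregulins, was close to the limit of detection. It had 5, 2 and 6 counts in shGDPD5 libraries and 3, 5 and 1 counts in shCtrl libraries. The sums of 13 counts (95% Poisson interval 6.92 to 22.2) and 9 counts (4.12 to 17.1) gave a rate ratio of 1.41 with an interval of 0.557 to 3.73, which covers counting error only. No difference was detectable at this depth.

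AREG, amphiregulin, a ligand of EGFR that many epithelial tumours make for themselves, had 3795, 4335 and 4046 counts in shGDPD5 libraries and 18352, 17600 and 17643 counts in shCtrl libraries. In normalized units these were 222, 231 and 228 CPM with shGDPD5 and 1069, 993 and 1017 CPM with shCtrl. The highest shGDPD5 library thus lay far below the lowest shCtrl library. The level was 22.1% of the shCtrl mean, or 4.52-fold lower in shGDPD5, with a log2 fold change of -2.18 (95% interval -2.27 to -2.08, adjusted p = 6.2e-12 by edgeR). Only 1.04% of the tested genes had a lower log2 fold change than AREG.

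EREG, epiregulin, a ligand of EGFR and ERBB4, was the member with the most counts. It reached 828, 806 and 814 CPM in shGDPD5 libraries and 2175, 1958 and 1979 CPM in shCtrl libraries. The shGDPD5 libraries lay close together, shCtrl replicate 1 was above the other shCtrl libraries, and the groups were far apart. The shGDPD5 mean was 40.1% of the shCtrl mean, and the log2 fold change was -1.32 (95% interval -1.42 to -1.22, adjusted p = 3.3e-10 by edgeR).

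BTC, betacellulin, which binds EGFR and ERBB4, had 73, 106 and 99 counts in shGDPD5 libraries and 484, 416 and 431 counts in shCtrl libraries. That equals 4.27, 5.66 and 5.58 CPM with shGDPD5 and 28.2, 23.5 and 24.9 CPM with shCtrl. Of the members it had the lowest log2 fold change, -2.30 (95% interval -2.55 to -2.04, adjusted p = 6.9e-09 by edgeR), with a mean at 20.3% of that in shCtrl. Its interval overlapped that of AREG, and only 0.883% of the tested genes had a lower log2 fold change than BTC.

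HBEGF, the heparin-binding ligand that also serves as the diphtheria toxin receptor, had 13.3, 15.4 and 13.3 CPM in shGDPD5 libraries and 31.2, 32.0 and 31.5 CPM in shCtrl libraries. The shCtrl libraries varied by 0.394 CPM (SD), all shGDPD5 libraries lay far below them, and the shGDPD5 mean was 44.2% of the shCtrl mean. The log2 fold change was -1.18 (95% interval -1.34 to -1.01, adjusted p = 5.7e-08 by edgeR).

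TGFA, transforming growth factor alpha, a classical autocrine ligand of EGFR, had 80.3, 84.5 and 79.9 CPM in shGDPD5 libraries and 130, 119 and 127 CPM in shCtrl libraries. The groups did not overlap, and the shGDPD5 mean was 65.0% of the shCtrl mean. Among the called ligands TGFA had the log2 fold change nearest to 0, -0.62 (95% interval -0.74 to -0.51, adjusted p = 6.3e-07 by edgeR), close to the value of EGFR.

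EPGN, epigen, a weakly binding ligand of EGFR, had 10, 6 and 7 counts in shGDPD5 libraries and 9, 7 and 7 counts in shCtrl libraries. Both groups summed to 23 counts (95% Poisson interval 14.6 to 34.5), with a rate ratio of 0.975 and an interval of 0.523 to 1.82. A difference of the size seen in AREG or BTC would lie outside that interval, which covers counting error only.

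**Figure D2:**
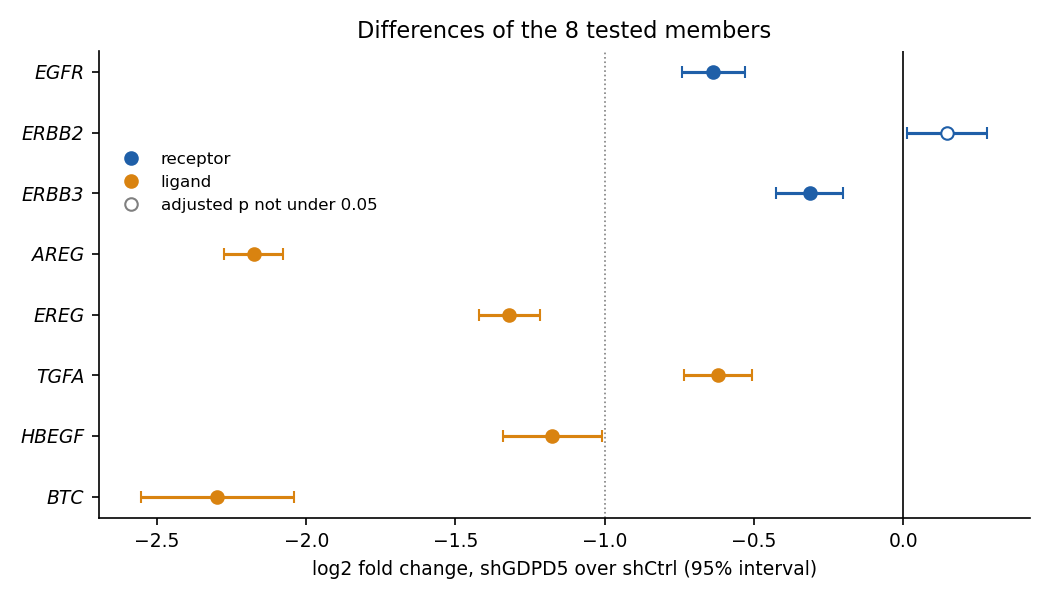
Log2 fold change (x axis, shGDPD5 over shCtrl) of the 8 tested members with 95% intervals from edgeR, receptors in blue and ligands in orange, and an open circle for the member with an adjusted p not under 0.05 (ERBB2). The dotted line marks a log2 fold change of -1. AREG and BTC lie near -2.2, EREG and HBEGF between -1.4 and -1.0, EGFR and TGFA near -0.6, ERBB3 at -0.31 and ERBB2 at 0.15.

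Levels of different genes were compared as normalized CPM per kb of exon, since longer transcripts collect more reads. The length was the union of all annotated exons, which can exceed that of the transcripts present. The order of genes and their shares below therefore depend on that choice. Among the receptors, EGFR had 9.33 ± 0.133 CPM per kb in shGDPD5 libraries and 14.5 ± 0.653 in shCtrl libraries (SD, n = 3 each). ERBB2 had 6.36 ± 0.164 in shGDPD5 libraries and 5.74 ± 0.434 in shCtrl libraries, and ERBB3 had 5.50 ± 0.134 in shGDPD5 libraries and 6.84 ± 0.126 in shCtrl libraries. EGFR was the highest receptor in both groups. The order of the other pair changed on this scale, with ERBB2 above ERBB3 in every shGDPD5 library and ERBB3 above ERBB2 in every shCtrl library. Without the division by length, ERBB3 and ERBB2 were nearly equal in shCtrl replicate 2, at 62.1 and 61.9 CPM.

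AREG, EREG and TGFA stood above every receptor on this scale in both groups, and HBEGF, BTC and EPGN stood below EGFR. AREG had 138 ± 2.96 CPM per kb in shGDPD5 libraries and 623 ± 23.4 in shCtrl libraries, and EREG had 143 ± 2.01 in shGDPD5 libraries and 356 ± 20.9 in shCtrl libraries. AREG exceeded 99.7% of all tested genes in shCtrl libraries and still 98.7% of them in shGDPD5 libraries, so it was among the abundant transcripts in both groups. On this scale AREG was the leading ligand in every shCtrl library. Without the division by length EREG was ahead there, with a shCtrl mean of 2037 CPM against 1026 CPM for AREG. In shGDPD5 libraries EREG was narrowly ahead, with 145, 141 and 142 CPM per kb against 135, 140 and 138 for AREG, a gap close to the spread between libraries.

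TGFA followed with 16.4 ± 0.515 CPM per kb in shGDPD5 libraries and 25.3 ± 1.20 in shCtrl libraries, and HBEGF with 4.63 ± 0.404 in shGDPD5 libraries and 10.5 ± 0.131 in shCtrl libraries. BTC had 1.84 ± 0.278 in shGDPD5 libraries and 9.06 ± 0.860 in shCtrl libraries. HBEGF and BTC did not overlap in shGDPD5 libraries, whereas BTC in shCtrl replicate 1 came close to the lowest shCtrl value of HBEGF. EPGN stood at 0.239 and ERBB4 at 0.0189 CPM per kb in shGDPD5 libraries, against 0.243 and 0.0132 in shCtrl libraries.

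**Figure D3:**
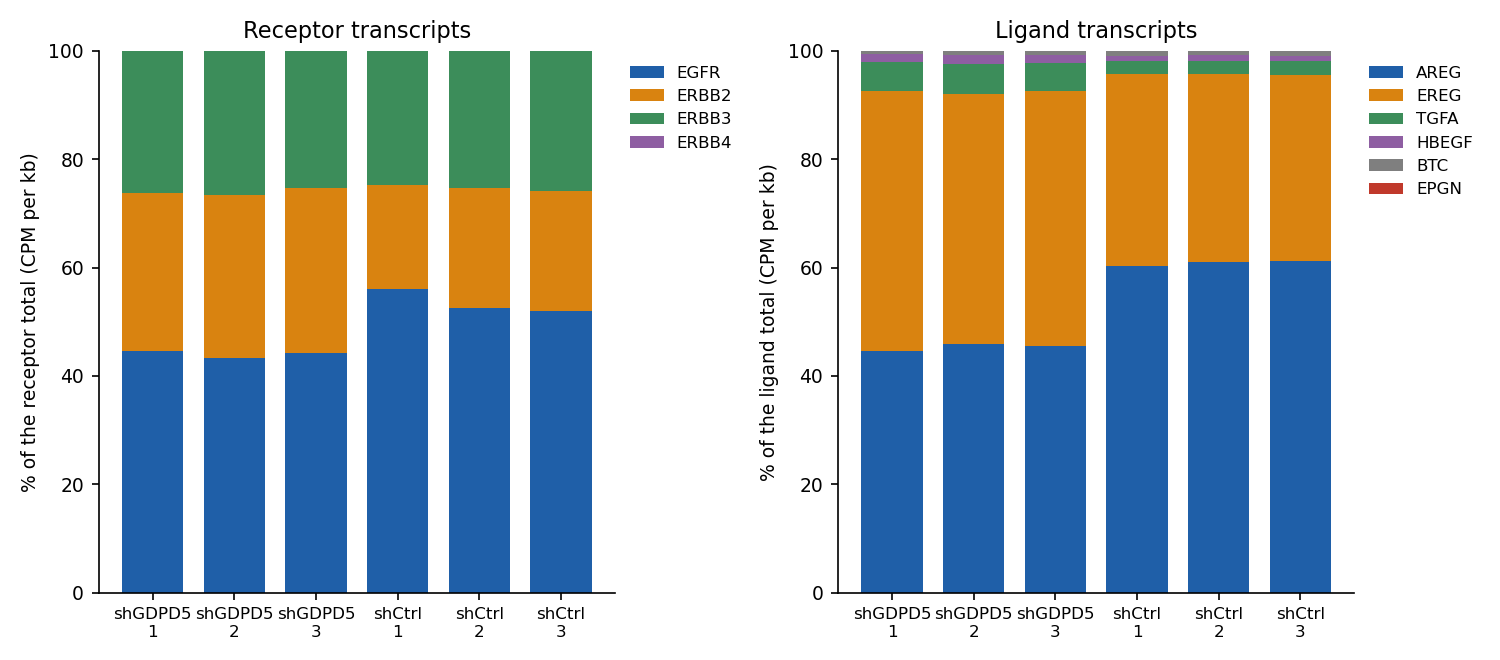
Share of each receptor in the summed receptor level (left) and of each ligand in the summed ligand level (right), in percent of CPM per kb (y axis), by library, with shGDPD5 libraries on the left of each panel. The EGFR share is 43.2% to 44.6% in shGDPD5 libraries and 51.9% to 56.0% in shCtrl libraries, and the AREG share is 44.6% to 45.9% in shGDPD5 libraries and 60.3% to 61.2% in shCtrl libraries. ERBB4 and EPGN are too small to be seen.

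The make-up of both pools shifted, which is given as a description with no test. The size of each share depends on the exon lengths used. The 4 receptors summed to 21.2 ± 0.111 CPM per kb in shGDPD5 libraries and 27.1 ± 0.139 in shCtrl libraries, and the 6 ligands to 304 ± 1.87 in shGDPD5 libraries and 1024 ± 45.8 in shCtrl libraries. ERBB2 made up 30.0 ± 0.617% of the receptor pool with shGDPD5 and 21.2 ± 1.67% with shCtrl, while ERBB3 made up 25.9 ± 0.687% with shGDPD5 and 25.2 ± 0.577% with shCtrl, with overlapping values. In the ligand pool EREG took 47.0 ± 0.946% with shGDPD5 and 34.8 ± 0.533% with shCtrl. TGFA took 5.41 ± 0.142% with shGDPD5 and 2.47 ± 0.0636% with shCtrl, a larger share of a smaller total. BTC took 0.604 ± 0.0886% with shGDPD5 and 0.883 ± 0.0439% with shCtrl. Of all counts in a library, AREG and EREG together took 0.108%, 0.105% and 0.106% with shGDPD5 and 0.316%, 0.289% and 0.293% with shCtrl.

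Ratios of counts within a library, like the shares above, do not depend on how libraries are scaled to each other. They restate the same counts without the exon lengths and are no separate check of the shift. The ratio of ERBB2 to EGFR counts was 0.542, 0.575 and 0.568 in shGDPD5 libraries and 0.283, 0.346 and 0.353 in shCtrl libraries, a mean log2 difference of 0.79. The ratio of ERBB3 to ERBB2 was 0.779, 0.771 and 0.724 with shGDPD5 and 1.12, 1.00 and 1.02 with shCtrl. Neither set of ratios overlapped between groups. AREG counts per EGFR count were 1.88, 2.01 and 1.93 in shGDPD5 libraries and 5.60, 5.55 and 5.80 in shCtrl libraries.

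Not every pair moved apart. TGFA counts per EGFR count were 0.682, 0.735 and 0.677 with shGDPD5 and 0.683, 0.664 and 0.726 with shCtrl, overlapping values with a mean log2 difference of 0.01. AREG counts per EREG count were 0.268, 0.287 and 0.280 in shGDPD5 libraries and 0.491, 0.507 and 0.514 in shCtrl libraries. This ratio was thus lower in every shGDPD5 library than in any shCtrl library. HBEGF counts per TGFA count were 0.165, 0.182 and 0.166 in shGDPD5 libraries and 0.239, 0.269 and 0.248 in shCtrl libraries.

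EPGN, EREG, AREG and BTC are adjacent protein-coding genes, in this order, on chromosome 4, from 74308473 to 74794686, a span of 486.2 kb (GENCODE release 29 on GRCh38). EREG (74365143 to 74388751) and AREG (74445134 to 74455009) run on the plus strand and BTC (74744759 to 74794686) on the minus strand. Of the protein-coding neighbours on either side, 1 was called. MTHFD2L, a mitochondrial folate enzyme gene on the EPGN side, had 347, 360 and 311 counts in shGDPD5 libraries and 298, 304 and 253 in shCtrl libraries, with a log2 fold change of 0.22 (SE 0.09, adjusted p = 0.0601 by edgeR). PARM1, a mucin-like gene on the BTC side, had 315, 326 and 318 counts in shGDPD5 libraries and 691, 679 and 684 in shCtrl libraries, with a log2 fold change of -1.14 (SE 0.06, adjusted p = 1.3e-08 by edgeR). The antisense gene AC239584.1 between AREG and BTC had 19 to 32 counts with shGDPD5 and 31 to 39 with shCtrl and was not called (adjusted p = 0.0787 by edgeR). TGFA (chromosome 2, 70447280 to 70554193, minus strand) and HBEGF (chromosome 5, 140332843 to 140346631, minus strand) were lower too and lie elsewhere.

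**Figure D4:**
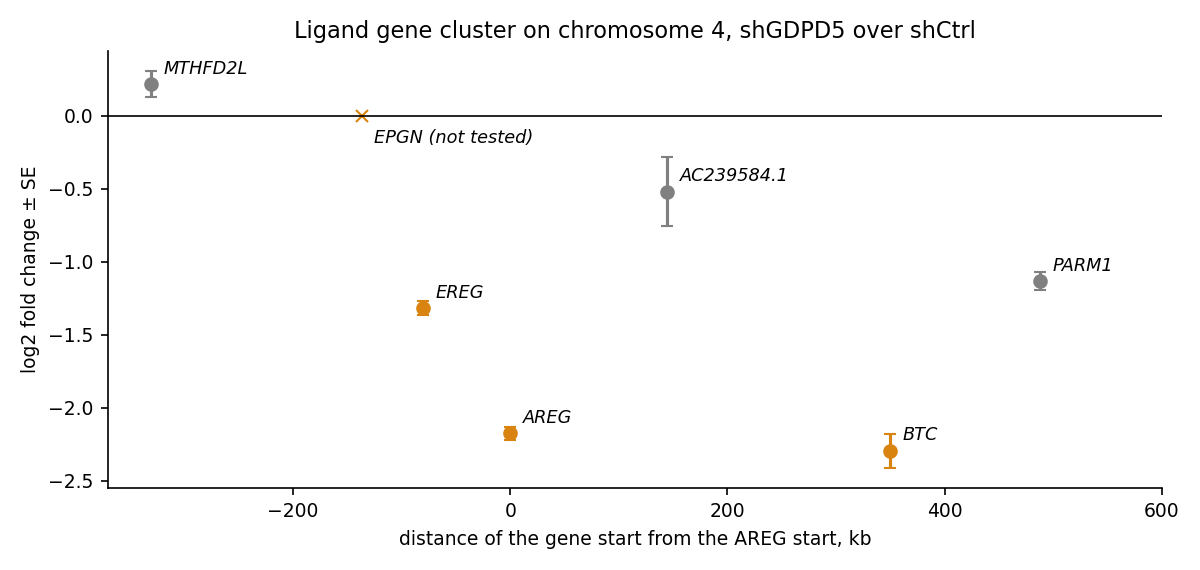
Log2 fold change ± SE (y axis, shGDPD5 over shCtrl, edgeR) against the distance of each gene start from the AREG start in kb (x axis) for the ligand cluster on chromosome 4, with ligands in orange and other genes in grey. The cross marks the place of EPGN on the line at 0 and is no value, since EPGN was not tested. EREG, AREG, BTC and PARM1 lie at -1.1 or below, and MTHFD2L lies at 0.22.

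Other EGF-family ligands, listed beside the members, did not follow them. NRG4, a neuregulin that binds ERBB4, had 78, 99 and 78 counts in shGDPD5 libraries and 30, 36 and 29 counts in shCtrl libraries, with a log2 fold change of 1.38 (SE 0.17, adjusted p = 1.7e-05 by edgeR). NRG4 was thus higher in every shGDPD5 library than in any shCtrl library. Its level was 4.75 ± 0.472 CPM with shGDPD5 and 1.82 ± 0.190 CPM with shCtrl. EGF itself had 18, 27 and 23 counts with shGDPD5 and 26, 17 and 19 with shCtrl (log2 fold change 0.09, adjusted p = 0.784 by edgeR). NRG2 did not pass (log2 fold change 1.03, adjusted p = 0.0518 by edgeR). NRG1 held 24 counts in all with shGDPD5 and 15 with shCtrl and was not tested, and NRG3 had 0 counts in every library.

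Genes that act in the release of the ligands from the membrane were read from the same fit. This list and those below were written with earlier results of these data known. Of 12 listed, 10 were tested, 6 were lower and 1 was higher, with a median log2 fold change of -0.26, beside 30.1% lower and 29.7% higher among all tested genes. ADAM17, the main sheddase of AREG, EREG, TGFA and HBEGF, averaged 66.4 ± 2.11 CPM in shGDPD5 libraries and 122 ± 4.70 CPM in shCtrl libraries, a log2 fold change of -0.87 (adjusted p = 2.5e-08 by edgeR). ADAM10, the main sheddase of BTC, was lower by a smaller amount (log2 fold change -0.39, adjusted p = 5.3e-05 by edgeR), and ADAM19, a related protease, by a larger one (log2 fold change -1.91, adjusted p = 7.4e-11 by edgeR). TIMP1, an inhibitor of metalloproteases, was lower too (log2 fold change -0.68), so the 6 lower genes include an inhibitor beside proteases. TIMP3, a related inhibitor, was not called (log2 fold change 0.02). The higher gene was FRMD8, which stabilizes ADAM17 at the cell surface (log2 fold change 0.42, adjusted p = 0.000983 by edgeR).

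Of 23 adaptors and RAS-ERK cascade genes downstream of the receptors, 7 were higher and 9 lower, with a median log2 fold change of -0.08. Over all tested genes 29.7% were higher and 30.1% lower, so these counts are no result about the cascade. PLCG1, the phospholipase that docks on EGFR, had a log2 fold change of 0.77, while the adaptor SHC1 and the exchange factor SOS2 each had one of -0.68. Of 13 genes of the PI3K-AKT arm, 3 were higher and 3 lower (median log2 fold change 0.07). The kinases PDPK1 and MTOR had log2 fold changes of 0.51 and 0.23, the lipid phosphatase INPP4B one of -0.41 and the PI3-kinase subunit PIK3R1 one of -0.47. Of 20 genes of receptor trafficking, 10 were higher and 5 lower (median log2 fold change 0.11). The late endosome GTPase RAB7A had a log2 fold change of 0.39, the early endosome GTPase RAB5A one of -0.51, the sorting factor STAM2 one of -0.82 and the translocon subunit SEC61B one of -0.96. All 11 of these genes passed an adjusted p under 0.05 by edgeR.

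Of 16 receptor-proximal negative regulators, which restrain the receptors, 7 were lower and 4 higher, beside 30.1% lower and 29.7% higher among all tested genes, and the median log2 fold change was -0.10. ERRFI1, a feedback inhibitor that binds the kinase domain of EGFR, averaged 436 ± 8.40 CPM in shGDPD5 libraries and 2552 ± 85.1 CPM in shCtrl libraries, a log2 fold change of -2.55 (adjusted p = 1.3e-12 by edgeR). SH3KBP1, an adaptor of receptor uptake, had a log2 fold change of -1.51, the ubiquitin ligase CBLC one of -1.18 and the phosphatase PTPN12 one of -0.69, all with an adjusted p under 0.05 by edgeR.

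Of 16 ERK output genes, 12 were lower and 2 higher (SPRED2 and ETV4), with a median log2 fold change of -0.85. This list, like the others, was written with earlier results of these data known, so its counts and median are a description only. All tested genes had 30.1% lower, 29.7% higher and a median of 0.01, and the members had a median of -0.91. The named ones were the phosphatases DUSP5 (-1.70), DUSP4 (-1.15) and DUSP6 (-0.94), which switch off MAP kinases, and PHLDA1 (-1.12), each with its log2 fold change and each with an adjusted p under 0.05 by edgeR. Without shCtrl replicate 1, a setting not planned for the lists, 13 of these genes were lower and 2 higher. In that fit 5266 of 17246 tested genes were lower and 5091 higher, and more genes were also called in some of the other lists.

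**Figure D5:**
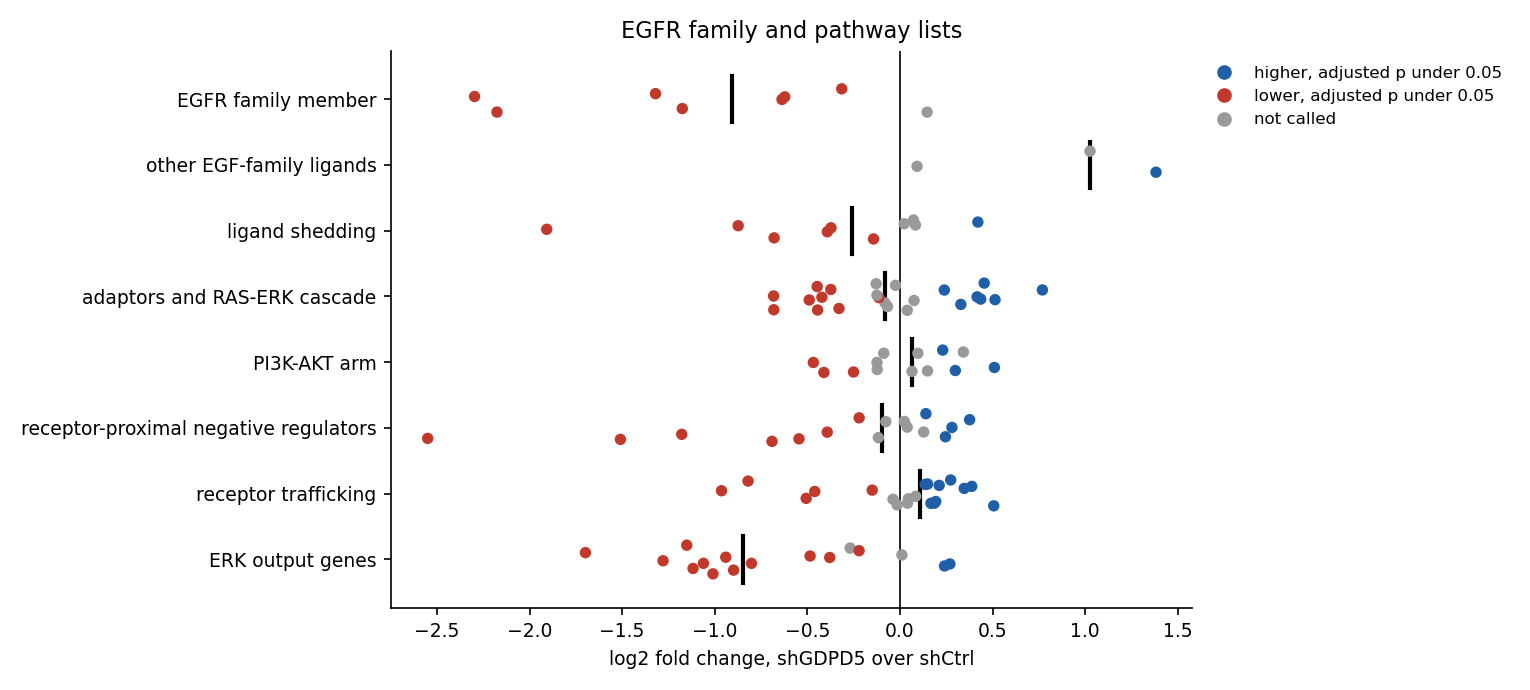
Log2 fold change (x axis, shGDPD5 over shCtrl) of every tested gene in the EGFR family and in 7 pathway lists (rows), blue for higher and red for lower at an adjusted p under 0.05 by edgeR, grey for neither, with a black bar at the median of each list. The family and the ERK output genes have medians of -0.91 and -0.85, and the other lists have medians between -0.26 and 1.03, the last from 3 tested ligands.

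The genes whose levels followed EGFR and AREG most closely over the 6 libraries were also looked up. For EGFR these were EIF2S2, TRIM2 and GOSR1, each with a Pearson r of 0.9997 on log2 CPM, and for AREG they were ARRDC3, NQO1 and ERRFI1, each with an r of 0.9999. With 6 libraries in 2 groups high values are common, and 2511 tested genes had an r over 0.95 with EGFR and 2612 with AREG. How many genes came near 0.9997 or 0.9999 was not counted. The named genes share the libraries and the difference between the groups and are given as a description.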

How the data were processed

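RNA-seq was analysed for 6 HCT116 libraries (3 shGDPD5, 3 shCtrl), prepared, per the labels, by a SMARTER mRNA-Seq kit on total RNA. The authors deposited 1 table of estimated counts (expected counts that need not be whole) for 79302 genes, 370 of them under names assigned in processing. The aligner, counter, build and use of strand were not given in the sources used here. Groups and replicates were taken from the labels.

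Estimated counts were rounded, which changed a value by at most 0.5. After the default filter of edgeR (minimum count 10), 16755 genes, 95.5% of them with a symbol, were normalized by TMM and tested in edgeR 4.0.16 (R 4.3.3) by quasi-likelihood, with 3 libraries a group, no further term and Benjamini-Hochberg adjustment over all tested genes. The common biological coefficient of variation was 0.0555. Totals of 16715447 to 18510670 counts a library limit precision for genes of a few counts. Poisson intervals are exact, at 95%. Levels per kb used the union of exons in GENCODE release 29 on GRCh38, which is not stated to be the annotation of the counts. The motif search and the promoters used RefSeq.

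Members and lists were chosen with earlier results of these data known. Named were all members, the genes of lowest adjusted p in each list (up to 4, all under 0.05), EGF and NRG1 to NRG4, GDPD5 and CD55, the 3 genes most correlated with EGFR and with AREG, and genes that overlap a member; 1 gene that this rule names is not reported here. FRMD8, TIMP3, SPRED2, ETV4 and the neighbours of the chromosome 4 cluster were added after their values were seen. Same-numbered libraries of the groups did not deviate together. The alternatives comprised DESeq2 1.42.0, voom of limma 3.58.1 and a per-gene linear model on log2(CPM + 1). They also comprised other scaling factors (RLE, upper quartile), other filters (none, or 10 counts in every library) and leaving out each library. A replicate block and thresholds like those of the study, applied to the edgeR test, completed them. The procedure was tested on simulated data.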

Additional observations from a re-analysis of the deposited data

How the results depend on the processing

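EGFR, ERBB3, AREG, EREG, TGFA, HBEGF and BTC were lower with an adjusted p under 0.05 in all 14 alternative fits run for each of them. With each library left out in turn, the log2 fold change lay between -0.67 and -0.60 for EGFR, -0.34 and -0.30 for ERBB3, -2.20 and -2.15 for AREG, -1.35 and -1.27 for EREG, -0.66 and -0.60 for TGFA, -1.26 and -1.14 for HBEGF, -2.38 and -2.18 for BTC, and 0.08 and 0.17 for ERBB2. ERBB2 passed with upper quartile factors (log2 fold change 0.16, adjusted p = 0.0388 by edgeR) and with at least 10 counts in every library (0.15, adjusted p = 0.0477 by edgeR), so that 1 member was called higher under either setting. At thresholds like those the study states, applied to the edgeR test, 4 members were called lower. The replicate numbers did not pair the samples (r of -0.070, -0.052 and -0.041 between same-numbered libraries), and with a replicate block the log2 fold change was 0.15 for ERBB2 (adjusted p = 0.0544 by edgeR) and no member's call changed. Over all genes, 4971 were called higher and 5035 lower by the main test, against 4253 and 4458 by DESeq2. ERBB4, EPGN and NRG1 fell below the count filter, and at their depth the counting intervals of the ratios all include 1. NRG3 had no counts to compare.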
